A study of Mus musculus with 4 samples.

Results

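Iron reaches an injured cortex in blood and leaves dying cells as haem, and the 9 genes described here encode proteins that break haem down, move iron across membranes, carry it and store it. They were taken by name and not by a rule on their measured values, although earlier results of these data were known. The genes are Hmox1 (ENSMUSG00000005413), Slc40a1 (ENSMUSG00000025993), Slc11a1 (ENSMUSG00000026177), Slc11a2 (ENSMUSG00000023030), Tfrc (ENSMUSG00000022797), Trf (ENSMUSG00000032554), Cp (ENSMUSG00000003617), Fth1 (ENSMUSG00000024661) and Ftl1 (ENSMUSG00000050708), out of 33696 gene features. All 9 were in the feature table and all 9 had unique molecular identifiers (UMIs, each standing for 1 captured RNA molecule).

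The data were single-nucleus RNA sequencing of mouse brain 21 days after photothrombotic (PT) injury, in which light and a dye clot the vessels of a patch of cortex. The first group carries the genotype label WT and is called control, and the second, Cxcl12-cKO, carries Col1a2(creER) with Cxcl12(flox), a Cre driver that acts in fibroblasts once tamoxifen is given and a conditional allele of the chemokine gene Cxcl12. The study's methods describe controls of its conditional strains as tamoxifen-induced where relevant, and among others Cre-negative or heterozygous for the floxed allele. Each genotype was 1 gene expression library made from 2 pooled mice, 1 female and 1 male, with lesion and surrounding parenchyma marked by oligonucleotide tags and mixed to about 75% lesion and 25% parenchyma. The 4 samples were therefore 1 gene expression and 1 tag library per genotype, deposited as 4 matrices of nuclei by region.

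There was 1 library per genotype, so no test between genotypes was possible, and every interval given here covers counting error only. Of 23489 barcodes, 21743 were kept, with a median of 2962 UMIs per nucleus in the control lesion, 2975 in the Cxcl12-cKO lesion, 15915 in the control parenchyma and 16648 in the Cxcl12-cKO parenchyma. Nuclei were clustered without the 9 genes, and each cluster was named for the class whose markers it carried. The lesions held 8272 fibroblast-like, 4103 myeloid-like, 1039 astrocyte-like, 739 excitatory-neuron-like, 421 osteoblast-lineage-like, 392 oligodendrocyte-like, 296 endothelial-like, 277 inhibitory-neuron-like, 233 oligodendrocyte-precursor-like and 225 T-cell-like nuclei. The endothelial-like class also held a subcluster with mural markers, and 79 of its lesional nuclei formed vascular subcluster 3, which carried fibroblast markers first and myeloid markers second. Matrices of different libraries shared between 1 and 22 barcodes, and 9.75 to 14.3% of nuclei in a matrix carried both Xist and Y-linked UMIs, as a droplet with RNA of both pooled mice would. Cxcl12 itself went against the labels, since lesional fibroblast-like nuclei had 106 CPM of it under the control label but 214 CPM under the other, and counts from the 3′ end of a transcript need not register the deleted part. Control and Cxcl12-cKO below therefore mean the libraries so labelled.

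Haem oxygenase 1 (Hmox1) opens the haem ring and frees its iron, and the freed iron is either stored or sent out of the cell by ferroportin (Slc40a1), the iron exporter of mammalian cells. Transferrin (Trf) carries iron to the transferrin receptor (Tfrc), DMT1 (Slc11a2) moves iron out of endosomes, NRAMP1 (Slc11a1) clears metal from the phagosomes of macrophages, ceruloplasmin (Cp) oxidises iron for loading onto transferrin, and the ferritin heavy (Fth1) and light (Ftl1) chains form the shell in which iron is stored. Much of the control over these proteins is exerted after transcription, by iron regulatory proteins that bind a hairpin in the RNA, the iron-responsive element. In the 5′ untranslated region (UTR) the bound hairpin blocks translation and in the 3′ UTR it protects the RNA from decay, so that the RNA levels reported here are not levels of protein.

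Stretches that match a search for the hairpin are shown because 4 of the 9 genes held one and the side of the message differs between them. The letters were read from the GENCODE annotation of build GRCm38 (release M21), not from the GRCm39 build to which the files were aligned, and the search was for a C, then any 5 bases, then the loop CAGTGN, then 5 bases that pair with the first 5 with G-T pairs allowed, on the transcript strand only. Each stretch is 27 bases from 5′ to 3′, with the loop in capitals. Of all genes with an annotated 5′ UTR, 31 of 20899 (0.148%) held a match there, and of all genes with an annotated 3′ UTR, 129 of 21022 (0.614%) held one, so that a match describes these letters and is not by itself a working element. No match was found in the UTRs of the other 5 members, Slc11a2 included, which says only that these letters are not in those windows.
Fth1 5′ UTR, chr19:9982733-9982759, plus strand, transcript Fth1-203: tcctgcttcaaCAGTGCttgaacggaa
Ftl1 5′ UTR, chr7:45459780-45459806, minus strand, transcript Ftl1-201: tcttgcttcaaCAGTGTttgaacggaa
Slc40a1 5′ UTR, chr1:45925466-45925492, minus strand, transcript Slc40a1-201: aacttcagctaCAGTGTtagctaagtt
Tfrc 3′ UTR, chr16:32631220-32631246, plus strand, transcript Tfrc-201: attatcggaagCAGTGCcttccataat
Tfrc 3′ UTR, chr16:32631599-32631625, plus strand: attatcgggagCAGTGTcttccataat
Tfrc 3′ UTR, chr16:32631664-32631690, plus strand: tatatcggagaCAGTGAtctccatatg
Tfrc 3′ UTR, chr16:32631711-32631737, plus strand: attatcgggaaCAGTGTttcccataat

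The storage and export genes thus held 1 match each before the coding sequence and the receptor gene held 4 after it. The search would miss an element whose stem pairs imperfectly, so these are not counts of all elements. Each of the 7 stretches lay within 1 exon.

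Levels are given as CPM, in which the UMIs of a gene, summed over the nuclei of a class, are scaled to a common total of UMIs of all genes. CPM is not a level per gene length, so each gene is compared with itself across nuclei and not with the other genes. The highest class differed among the 9 genes in the lesion, as the plot of levels by class shows. Hmox1, Slc40a1, Slc11a1, Slc11a2, Fth1 and Ftl1 were highest in myeloid-like nuclei, Trf in oligodendrocyte-like nuclei and Cp in astrocyte-like nuclei, and Tfrc was about equal in myeloid-like and neuronal nuclei. With the nuclei split between the mice by sex-linked UMIs, the highest class was the same in 4 of 4 mice for Hmox1, Slc40a1, Slc11a1, Ftl1, Trf and Cp, and in 3 of 4 for Fth1. It was the myeloid-like class in 2 of 4 mice for Slc11a2 and for Tfrc.

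**Figure D1:**
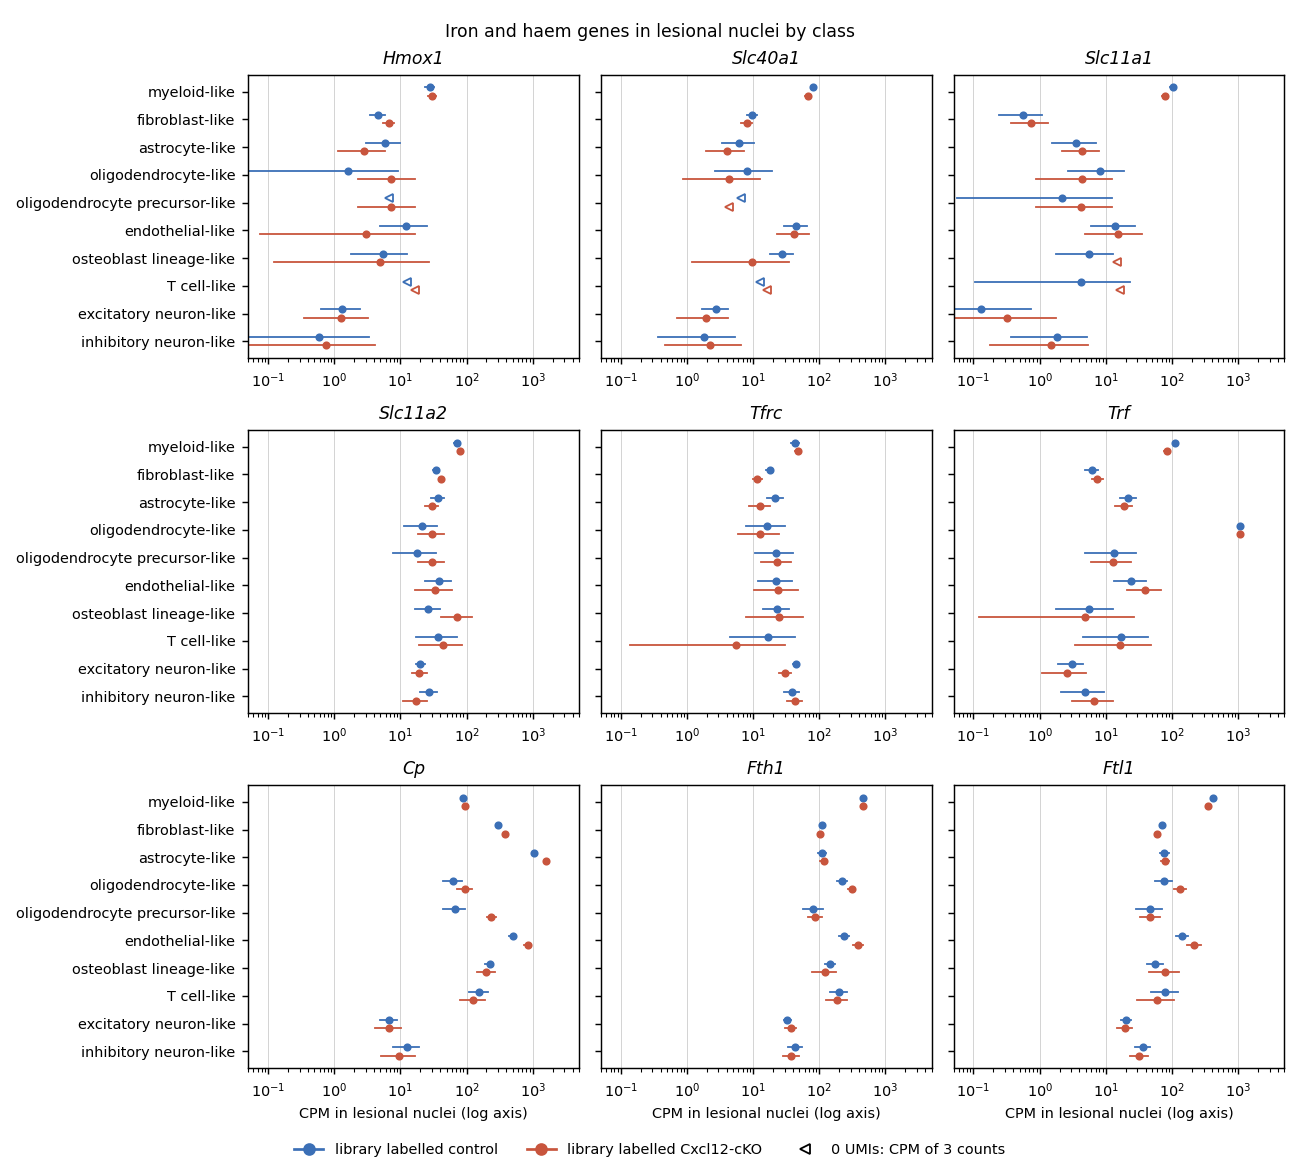
Level of each of the 9 genes (CPM, log axis) by class of lesional nuclei, 1 panel per gene, with blue points for control, red points for Cxcl12-cKO, bars for the 95% Poisson interval (cut off at the left edge where it reaches further) and open triangles at the CPM of 3 counts where a library had 0 UMIs. The highest points are in myeloid-like nuclei for Slc11a1 (88.2 CPM over both libraries), in oligodendrocyte-like nuclei for Trf (1078 CPM) and in astrocyte-like nuclei for Cp (1322 CPM).

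In myeloid-like nuclei of the lesion Hmox1, the haem-degrading enzyme, was at 29.1 CPM (95% interval 26.1 to 32.3, 344 UMIs). The 2 libraries lay close together, at 27.7 CPM in control and 30.1 CPM in Cxcl12-cKO, and the female and male mice were at 30.1 and 22.0 CPM in control and at 39.7 and 21.7 CPM in Cxcl12-cKO. The mice of the 2 libraries therefore overlapped. Fibroblast-like nuclei were at 5.63 CPM, and the myeloid-like level was 5.17-fold higher (interval 4.28 to 6.27). Endothelial-like nuclei, at 8.78 CPM, rested on 8 UMIs, and excitatory-neuron-like nuclei were at 1.31 CPM. Of all lesional Hmox1 UMIs, 60.6% were in myeloid-like nuclei, which made up 25.6% of the lesional nuclei. No Hmox1 UMI was found in 225 T-cell-like nuclei, where 3 UMIs would have been 7.10 CPM.

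A gene as scarce as Hmox1 was seen in few nuclei. A UMI was present in 6.56% of lesional myeloid-like nuclei (269 of 4103, interval 5.82 to 7.36%) at a median of 2291 UMIs per nucleus, and in 1.76% of lesional excitatory-neuron-like nuclei at a median of 13644, a class in which the gene is known to be low. After each nucleus was thinned to 1000 UMIs, which left out 219 myeloid-like nuclei and 1 excitatory-neuron-like nucleus, the shares were 2.91% and 0.14%. The fibroblast-like share was 1.72%, or 0.397% after thinning with 211 nuclei left out.

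In the same lesional class ferroportin (Slc40a1) was at 73.4 CPM (68.6 to 78.5, 868 UMIs), at 81.8 in control and 67.7 in Cxcl12-cKO. Endothelial-like nuclei followed at 43.9 CPM (31.3 to 59.7) and osteoblast-lineage-like nuclei at 24.2 CPM (15.9 to 35.2), intervals that overlap, and 80.8% of the latter nuclei came from the control library. Fibroblast-like nuclei were at 8.83 CPM, so that the myeloid-like level was 8.30-fold higher (7.22 to 9.59). A UMI was present in 12.3% of myeloid-like and 3.11% of excitatory-neuron-like nuclei in the lesion, and in 5.56% and 0% after thinning, where the upper bound of the exact binomial interval of the latter is 0.499%. In 233 oligodendrocyte-precursor-like nuclei there was no Slc40a1 UMI, where 3 UMIs would have been 2.60 CPM. The 78 parenchymal myeloid-like nuclei stood at 125 CPM on 23 UMIs.

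Slc11a1, the phagosomal metal transporter of macrophages, was the member most restricted to myeloid-like nuclei, which held 93.0% of its lesional UMIs (1042 of 1120). Its level was 88.2 CPM there (82.9 to 93.7), 0.656 CPM in fibroblast-like nuclei and 0.187 CPM in excitatory-neuron-like nuclei, and the myeloid-like level was 131-fold over the fibroblast-like one (85.7 to 224). The share of nuclei with a UMI was 20.4% in myeloid-like and 0.27% in excitatory-neuron-like nuclei, and 8.73% and 0% after thinning. Slc11a2, its endosomal relative, was spread more evenly. Myeloid-like nuclei of the lesion had 76.9 CPM (72.0 to 82.1), and the other lesional classes ran from 19.9 CPM in excitatory-neuron-like to 40.2 CPM in T-cell-like nuclei. The myeloid-like level was 2.04-fold over the fibroblast-like one (1.87 to 2.23). All neighbours below the myeloid-like class overlapped in their intervals. The shares with a UMI were 17.8% in myeloid-like and 24.0% in the deeper excitatory-neuron-like nuclei, and 7.47% and 2.17% after thinning.

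The transferrin receptor (Tfrc) showed no single leading class. Lesional myeloid-like nuclei had 46.2 CPM (42.4 to 50.2), 40.8 CPM in excitatory-neuron-like nuclei (37.0 to 44.8) and 40.1 CPM in inhibitory-neuron-like nuclei (33.3 to 48.0), which do not differ beyond these intervals. Parenchymal inhibitory-neuron-like and excitatory-neuron-like nuclei were at 51.3 and 45.0 CPM. Fibroblast-like nuclei (14.7 CPM) and oligodendrocyte-like nuclei (14.5 CPM) were lowest but for the T-cell-like class, which had 5 UMIs. Thinned shares with a UMI were 3.68% in myeloid-like and 3.93% in excitatory-neuron-like nuclei, against 8.31% and 38.0% before thinning.

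Transferrin itself (Trf) is known as an oligodendrocyte product in brain, and was highest in oligodendrocyte-like nuclei here. It was at 1078 CPM in lesional oligodendrocyte-like nuclei (1022 to 1135), with 1073 in control and 1082 in Cxcl12-cKO, and at 891 CPM in the parenchymal ones. These 392 nuclei were 2.45% of the lesional nuclei and held 48.0% of the lesional Trf UMIs. Myeloid-like nuclei came next at 95.01 CPM, and the oligodendrocyte-like level was 11.3-fold over theirs (10.5 to 12.3) and 158-fold over that of fibroblast-like nuclei (136 to 185). A UMI was found in 84.9% of oligodendrocyte-like nuclei (median 2587.5 UMIs per nucleus) and 3.65% of excitatory-neuron-like ones, and in 61.0% and 0% after thinning, which left out 5 oligodendrocyte-like nuclei.

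Ceruloplasmin (Cp) was at 1322 CPM in lesional astrocyte-like nuclei (1290 to 1356), 622 CPM in endothelial-like nuclei, 338 CPM in fibroblast-like nuclei and 6.72 CPM in excitatory-neuron-like nuclei. The intervals of the astrocyte-like, endothelial-like and fibroblast-like levels lay apart from each other and from all lower ones in the lesion. Fibroblast-like nuclei, being the most numerous, held 53.0% of the lesional Cp UMIs and astrocyte-like nuclei 33.9%. A UMI was present in 73.1% of astrocyte-like (median 3834 UMIs per nucleus), 36.6% of fibroblast-like (median 3067) and 8.39% of excitatory-neuron-like nuclei, and in 46.4%, 19.8% and 1.22% after thinning, which left out 4 astrocyte-like nuclei.

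Both ferritin chains had their highest lesional level in myeloid-like nuclei, which for Fth1 rested on a small subcluster. Fth1 was at 463 CPM there (451 to 476), 292 CPM in endothelial-like, 268 CPM in oligodendrocyte-like, 105 CPM in fibroblast-like and 34.2 CPM in excitatory-neuron-like nuclei. Ftl1 was at 374 CPM (363 to 385), 170 CPM, 106 CPM, 63.9 CPM and 20.1 CPM in the same order. The myeloid-like level of Fth1 was 4.41-fold over the fibroblast-like one and that of Ftl1 5.84-fold. A Fth1 UMI was present in 38.0% of myeloid-like and 33.4% of excitatory-neuron-like nuclei before thinning, and in 20.03% and 3.12% after it, and a Ftl1 UMI in 36.6% and 22.6% before, and in 19.3% and 1.90% after. Without the 163 nuclei of myeloid subcluster 4, described with the subclusters, the myeloid-like level was 298 CPM for Fth1 (288 to 308) and 274 CPM for Ftl1 (264 to 284). The endothelial-like Fth1 level without vascular subcluster 3 was 391 CPM (340 to 447) and that of Ftl1 148 CPM (118 to 184), so that the highest class for Fth1 turned on these subclusters. The ferritin UMIs were concentrated in few nuclei. In the lesional myeloid-like class the 41 nuclei with the most UMIs held 46.6% of the Fth1 UMIs and, counted separately, 37.5% of the Ftl1 UMIs. In the parenchyma, 1 myeloid-like nucleus of the control library held 628 of 835 Fth1 UMIs and 264 of 399 Ftl1 UMIs, and without the top nucleus the level fell from 4527 to 1283 CPM for Fth1 and from 2163 to 837 CPM for Ftl1.

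Ferritin genes have near-identical copies whose reads can be assigned to either. The feature table listed Ftl1-ps1 with 1032 UMIs over all nuclei and Fthl17a with 14, and Fthl17b to Fthl17f had 0.

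Across the 16 class-by-region profiles with at least 50 nuclei, Pearson's r of log2(CPM + 1) was 0.90 between Fth1 and Ftl1, 0.85 between Hmox1 and Slc11a1, 0.88 between Slc11a1 and Ftl1 and -0.64 between Tfrc and Cp. These profiles share libraries and depth and the values are descriptions. Among 13804 genes the pattern most like that of Slc11a1 was that of Spi1 (r = 0.99), then Ms4a6d and AU022793. The closest to Hmox1 were Clec7a (r = 0.94), Pcyt1a and 2510009E07Rik, to Slc40a1 Ralb (r = 0.87), Rbm19 and Epn1, and to Slc11a2 Gm57096 (r = 0.91), Uprt and Asl. For Tfrc they were Asb11 (r = 0.88), Trpc4 and Pparg, and for Trf Ppp1r21 (r = 0.94), 5031439G07Rik and Snx15. For Cp they were Asap3 (r = 0.97), Plce1 and Plscr4, for Fth1 Card19 (r = 0.96), Slc25a11 and Rpl37, and for Ftl1 Atp6v1g1 (r = 0.96), Zfp710 and Gabarap.

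Subclusters within the classes differed in which iron genes they carried, as the plot of levels by subcluster shows. Not every subcluster was led by genes of its class, since the 547 nuclei of lesional myeloid subcluster 3 were led by Trpm3 and Bmp6, the latter highest in fibroblast-like nuclei. Lesional myeloid-like nuclei were reclustered without the members. Of these nuclei, 1538 carried markers of border-associated macrophages (F13a1 and Mrc1 among the leading genes), with only 3 of the 6 listed markers up. Another 1768 carried markers of homeostatic microglia (Sall1 among the leading genes), with 4 of the 6 listed markers up. The names border-associated-like and microglia-like rest on these partial lists. Tfrc was at 87.6 CPM in the border-associated-like nuclei and 19.8 CPM in the microglia-like ones, a 4.40-fold difference, with counting intervals of 78.7 to 97.1 and 15.8 to 24.5 CPM. The border-associated-like nuclei were at 67.3 and 111 CPM in the control female and male mice and at 85.8 and 86.5 CPM in the Cxcl12-cKO female and male mice, and the microglia-like nuclei at 14.0, 25.3, 24.5 and 18.9 CPM in the same order. The 4 mice did not overlap between the subclusters. Hmox1 was at 38.3 against 28.8 CPM and Slc40a1 at 99.8 against 78.4 CPM, both higher in border-associated-like nuclei in 4 of 4 mice, whereas Slc11a1 was at 108 CPM in both. Slc11a2 was at 74.2 against 94.4 CPM, lower in border-associated-like nuclei in 3 of 4 mice.

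**Figure D2:**
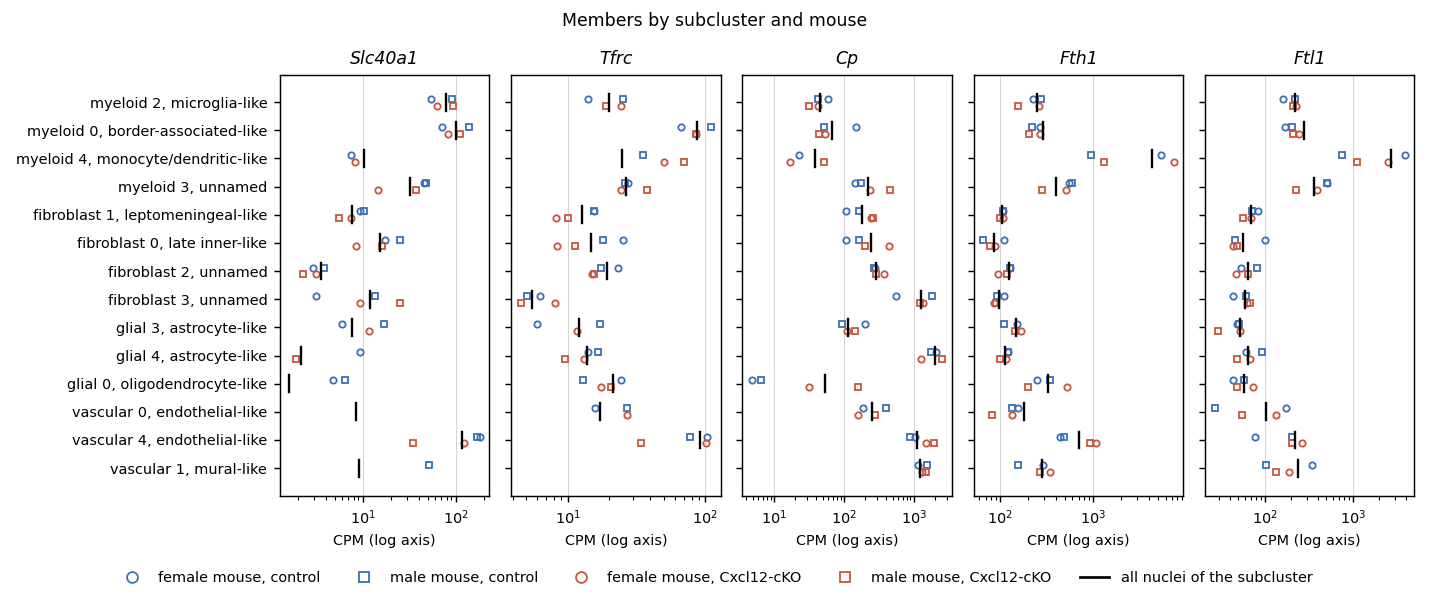
Level of 5 of the genes (CPM, log axis) in subclusters of myeloid-like, fibroblast-like, glial and vascular nuclei, with circles for female and squares for male mice, blue for control and red for Cxcl12-cKO, and a bar for all nuclei of the subcluster, where a mouse with 0 UMIs has no symbol. The bars of Fth1 and Ftl1 stand highest in myeloid subcluster 4 (4319 and 2695 CPM), and that of Cp stands at 2022 CPM in glial subcluster 4.

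A small subcluster of the myeloid-like class stood apart in its ferritin levels. The 163 nuclei of lesional myeloid subcluster 4 carried monocyte or dendritic markers, with 4 of the 6 listed up, and were led by Ccr7, Klrd1 and Flt3. Ccl5, Klrk1 and Stat4 were also among the leading genes, of which only Flt3 is on the marker list. Whether these nuclei are of 1 cell type was not tested. Their Fth1 level was 4319 CPM against 292 CPM in the border-associated-like nuclei, 14.8-fold higher. Fth1 was at 5350 and 960 CPM in the control female and male mice and 7332 and 1315 CPM in the Cxcl12-cKO female and male mice, against 203 to 266 CPM in the border-associated-like nuclei of the same mice. The subcluster was above in 4 of 4 mice, and higher in the females than in the males. These values rested on 32 and 12 nuclei of the control female and male mice and 39 and 21 of the Cxcl12-cKO ones. In the whole lesional myeloid-like class 1 nucleus held 413 of 5476 Fth1 UMIs. How far single nuclei carried the level of each mouse was not tested. Ftl1 was 9.71-fold higher, at 2695 against 278 CPM. These 163 nuclei held 38.4% of the Fth1 and 29.7% of the Ftl1 UMIs of the lesional myeloid-like class. The export and import genes went the other way. Slc40a1 was at 10.3 CPM on 5 UMIs against 99.8 CPM, Tfrc at 24.7 against 87.6 CPM and Slc11a2 at 22.6 against 74.2 CPM, each lower in 4 of 4 mice. In the control male mouse, with 12 nuclei in this subcluster, Slc11a2 was at 71.1 against 75.4 CPM. The median mitochondrial share was 2.02% in this subcluster and 0.407% in the border-associated-like one, and the median share of ribosomal-protein UMIs was 0.737% against 0.260%. The part of these shares in the ferritin difference was not tested.

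In fibroblast-like nuclei Cp marked a subcluster. Lesional fibroblast subcluster 3 (868 nuclei, no fixed marker list, led by Gm30613, Dcdc2a and Col4a6) was at 1278 CPM, and subcluster 1 (2904 nuclei, leptomeningeal-like) was at 183 CPM, a 6.99-fold difference. In the control female and male mice subcluster 3 was at 560 and 1811 CPM and subcluster 1 at 107 and 168 CPM, and in the Cxcl12-cKO female and male mice subcluster 3 was at 1368 and 1222 CPM and subcluster 1 at 242 and 264 CPM. Subcluster 3 was thus higher in 4 of 4 mice. Trf was also higher in subcluster 3 (22.7 against 4.30 CPM, 4 of 4 mice) and Tfrc was lower (5.48 against 12.7 CPM, 4 of 4 mice). The 2156 nuclei with late inner markers carried more Slc40a1 than subcluster 1 (15.4 against 7.61 CPM, 4 of 4 mice) and more Hmox1 (8.26 against 5.07 CPM, 3 of 4 mice).

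Among glial nuclei, Cp separated 2 astrocyte-like subclusters. Glial subcluster 4 (472 of its 478 nuclei lesional, led by Tnfsf11, Ptx3 and Chil1) was at 2022 CPM, and glial subcluster 3 (75 lesional and 75 parenchymal nuclei, led by Slc7a10 and Gpc5 among others) was at 115 CPM. The difference was 17.4-fold and went the same way in 4 of 4 mice, at 1258 to 2581 CPM against 94.0 to 199 CPM. Slc11a2 was at 34.3 against 13.7 CPM and Trf at 25.3 against 9.10 CPM, both higher in subcluster 4 in 4 of 4 mice. Subcluster 3 was at 0 CPM of Slc11a2 in the male mice of both libraries and at 0 CPM of Trf in the control female. Region and subcluster are mixed in these comparisons. Among lesional astrocyte-like nuclei alone Cp was at 2033 CPM in subcluster 4 and 238 CPM in subcluster 3. The part of region in the other differences was not tested.

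The vascular nuclei held 2 endothelial-like subclusters with different iron genes. Vascular subcluster 4 (80 nuclei, 59 of them lesional, led by genes of blood-brain barrier endothelium such as Slc38a5, Bsg and Slco1c1) was at 117 CPM for Slc40a1, 92.1 CPM for Tfrc, 1109 CPM for Cp and 699 CPM for Fth1. Vascular subcluster 0 (100 lesional nuclei, with Plvap, a gene of leaky endothelium, among its leading genes) was at 8.55, 17.1, 252 and 180 CPM for the same genes. All 4 genes were higher in subcluster 4 in 4 of 4 mice, on 28 against 2 UMIs for Slc40a1 and 22 against 4 UMIs for Tfrc. Median mitochondrial shares were 1.31% and 0.698% and median ribosomal-protein shares 0.892% and 0.488% in subclusters 4 and 0, whose part in the Fth1 difference was not tested. The mural-like subcluster of 51 nuclei was at 1226 CPM for Cp and had no Tfrc UMI. The upper bound of its Tfrc log2 ratio over vascular subcluster 0 was 1.69, so its Tfrc level is not set below that of subcluster 0.

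The comparison of lesion with parenchyma asked whether the same class of nucleus carried other levels beside and within the lesion. A gene was counted as different where its log2 ratio was at least 0.5 in size in the same direction in both libraries and both counting intervals left out 0. In excitatory-neuron-like nuclei 7 members had at least 50 UMIs, and of these 1 met the rule, Fth1, lower in the lesion, against a background of 14.6% of the 16945 genes with at least 50 UMIs (2.27% higher and 12.3% lower). A count of 1 in 7 is near the background and is no result about the set. Hmox1, on fewer than 50 UMIs, met the rule as the 1 member higher in the lesion, but its log2 ratio in the control male mouse was -1.03.

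Fth1 in excitatory-neuron-like nuclei was at 33.0 CPM in the control lesion and 71.2 CPM in the control parenchyma, and at 37.0 and 75.7 CPM in Cxcl12-cKO. The log2 ratios were -1.11 (-1.30 to -0.92) and -1.03 (-1.31 to -0.76). In the lesion the control female and male mice were at 33.9 and 30.5 CPM and the Cxcl12-cKO female and male mice at 38.4 and 31.4 CPM, and in the parenchyma at 73.3, 69.8, 67.4 and 85.7 CPM in the same order. The 4 lesional values lay below the 4 parenchymal ones. Fth1 was lower in the lesion in both libraries in inhibitory-neuron-like nuclei (log2 ratios -0.58 and -0.82), astrocyte-like nuclei (-1.32 and -0.96) and oligodendrocyte-like nuclei (-1.07 and -0.56) as well. Ftl1, the partner chain, had ratios above 0 in neuronal nuclei. In control and Cxcl12-cKO its log2 ratios were 0.61 (0.34 to 0.87) and 0.29 (-0.12 to 0.66) among excitatory-neuron-like nuclei, and 0.85 (0.39 to 1.29) and 0.67 (0.15 to 1.15) among inhibitory-neuron-like ones. In fibroblast-like nuclei they were -0.25 (-0.88 to 0.55) and -0.79 (-1.38 to -0.06), with Fth1 at 0.05 (-0.51 to 0.74) and -0.82 (-1.27 to -0.30). In myeloid-like nuclei both chains were lower in the lesion, Ftl1 at -3.29 and -0.67 and Fth1 at -4.13 and -1.56, on the 78 parenchymal nuclei of which 1, described above, held most of the UMIs.

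**Figure D3:**
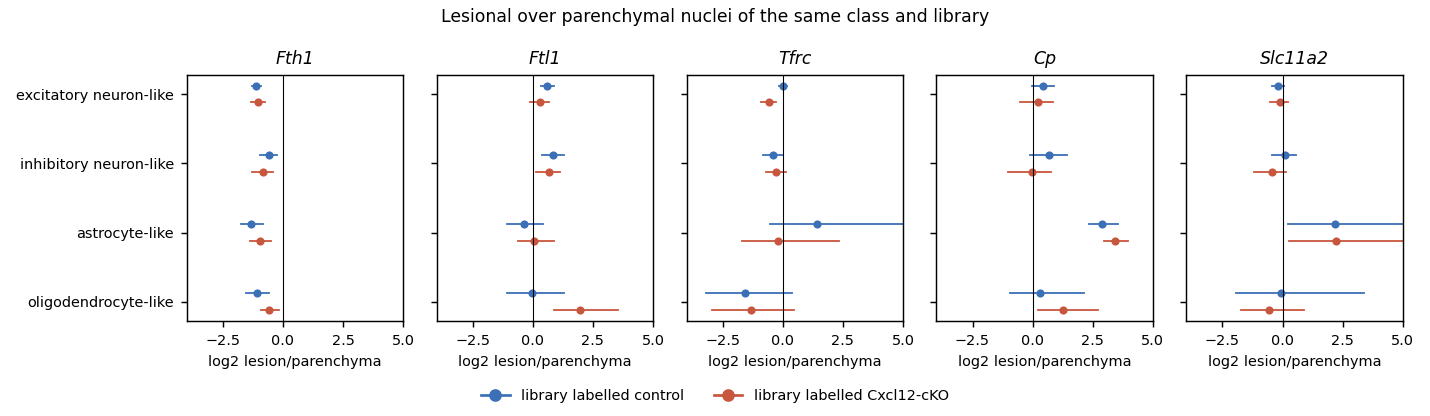
Log2 ratio of lesion over parenchyma for 5 of the genes in 4 classes of nuclei, with blue points for control, red points for Cxcl12-cKO, bars for the 95% counting interval (cut off at the right edge where it reaches further) and a line at 0. Fth1 lies below 0 in each of these 4 classes (-1.11 and -1.03 in excitatory-neuron-like nuclei), and Cp lies at 2.89 and 3.41 in astrocyte-like nuclei.

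The nuclei of the 2 regions differed in more than place. In excitatory-neuron-like nuclei the median share of Malat1, a nuclear RNA, was 2.69 and 2.88% in the control and Cxcl12-cKO lesions and 7.88 and 7.56% in the parenchymas, the summed fibroblast markers were at 149 and 88.1 CPM against 31.0 and 30.3 CPM, and median depth was 13917.5 and 12781 UMIs against 17478 and 18404 UMIs. The median share of ribosomal-protein UMIs was 0.0982 and 0.0989% against 0.135 and 0.151%. Their part in the Fth1 difference was not tested. Hmox1 in these nuclei was at 1.32 against 0.330 CPM in control and 1.28 against 0.236 CPM in Cxcl12-cKO, on 10 against 13 and 4 against 9 UMIs, too few to give a size. Tfrc was at 45.0 against 44.4 CPM in control and 30.6 against 45.7 CPM in Cxcl12-cKO.

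In astrocyte-like nuclei 3 of the 6 members with at least 50 UMIs met the rule, Cp and Slc11a2 higher and Fth1 lower in the lesion, against 15.3% of 9927 genes. Cp was at 1030 against 136 CPM in control (log2 ratio 2.89, 2.35 to 3.55) and at 1587 against 147 CPM in Cxcl12-cKO (3.41, 2.95 to 3.97). In the parenchyma the control female and male mice were at 180.5 and 135 CPM and the Cxcl12-cKO female and male mice at 16.7 and 466 CPM, each below the lowest lesional value of 924 CPM. The parenchymal values rested on 82 nuclei and 59 UMIs. The make-up of the class also differed, since 75 of these 82 nuclei were in glial subcluster 3, against 75 of 1039 in the lesion, where 472 were in subcluster 4, 322 in subcluster 2 and 164 in subcluster 6. Within subcluster 3 Cp was at 238 CPM in the lesion (184 to 302, 66 UMIs) and 26.2 CPM in the parenchyma (12.6 to 48.3, 10 UMIs). Slc11a2 was at 36.9 and 29.7 CPM in the lesions and had 1 UMI in each parenchyma. In inhibitory-neuron-like nuclei 2 of the 6 members with at least 50 UMIs met the rule, Fth1 lower and Ftl1 higher, against 10.4% of genes, and in oligodendrocyte-like nuclei 1 of 4, Fth1, against 7.24%. In myeloid-like nuclei Trf was at 112 and 83.4 CPM in the lesions and 257 and 263 CPM in the parenchymas, on 22 and 26 parenchymal UMIs.

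The comparison of the libraries asked how the iron genes stood where the fibroblast source of Cxcl12 was to be removed. The same fold of 0.5 with an interval that left out 0 was used, Cxcl12-cKO over control, and a second count took the genes for which both mice of 1 library lay outside both mice of the other. In lesional myeloid-like nuclei 0 of 9 members passed the fold, against 6.42% of 12326 genes (2.85% higher and 3.57% lower). The median log2 ratio was -0.02 over the members and -0.02 over all these genes. Slc11a1 was at 103 and 77.7 CPM (log2 ratio -0.41, -0.59 to -0.23) and Trf at 112 and 83.4 CPM (-0.43, -0.60 to -0.25) in control and Cxcl12-cKO. The mice did not overlap for either, at 118 and 109 against 89.3 and 74.7 CPM for Slc11a1 and 131 and 104 against 82.2 and 86.1 CPM for Trf, female before male. These 2 of 9 compare with 34.2% of all genes. Summed marker lists of other cells moved with these values. The 6 neutrophil markers summed to 654 CPM in control and 293 CPM in Cxcl12-cKO with Ly6g at 0 in both, and the 6 fibroblast markers to 1060 and 663 CPM. The neutrophil list is not particular to neutrophils here, since its gene Csf3r was among the leading genes of a myeloid-like cluster at resolution 0.5. Of the 6 erythroid markers, Hbb-bt and Slc4a1 were at 0 in both libraries, and the list summed to 1.46 CPM in control and 4.56 CPM in Cxcl12-cKO. Their part in the differences was not tested.

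**Figure D4:**
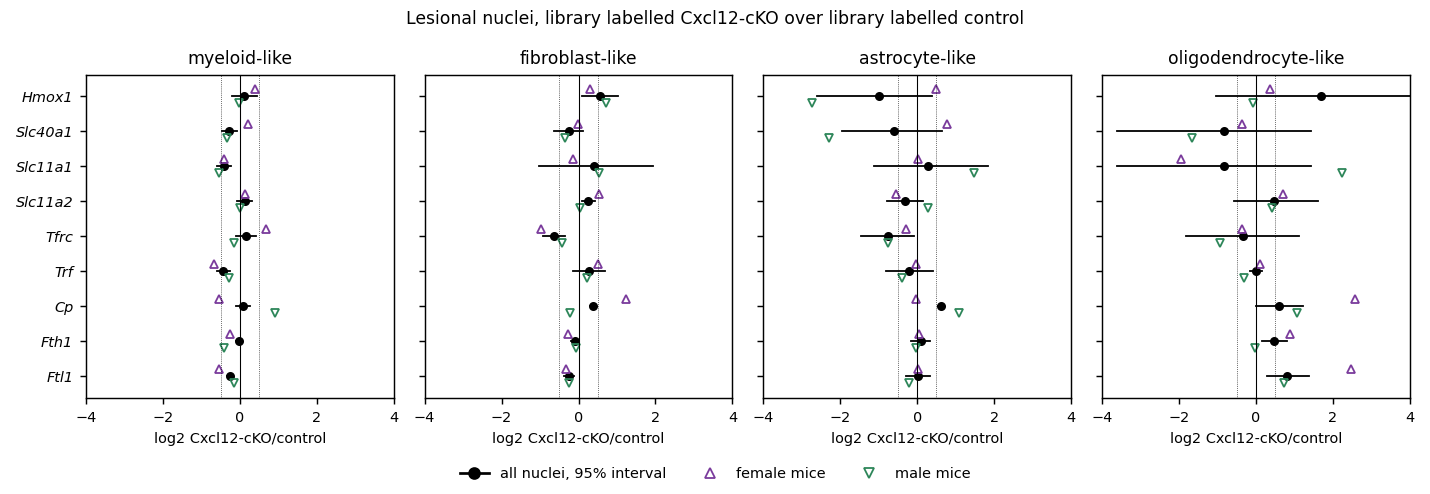
Log2 ratio of Cxcl12-cKO over control for each of the 9 genes in 4 classes of lesional nuclei, with a filled point and 95% counting interval for all nuclei (cut off at the edge where it reaches further), upward triangles for the female mice, downward triangles for the male mice and dotted lines at 0.5 in either direction. Cp stands at 1.25 in the females and -0.23 in the males among fibroblast-like nuclei, and in myeloid-like nuclei all 9 filled points lie within the dotted lines.

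In lesional fibroblast-like nuclei 2 of the 8 members with at least 50 UMIs passed the fold, 1 higher and 1 lower, against 6.5% of 14331 genes (3.7% higher and 2.81% lower). Tfrc was at 17.9 CPM in control and 11.5 CPM in Cxcl12-cKO (log2 ratio -0.63, -0.92 to -0.35), at 19.7 and 15.8 CPM in the control female and male mice and 9.92 and 11.6 CPM in the Cxcl12-cKO ones. Hmox1 was at 4.54 and 6.69 CPM (0.56, 0.09 to 1.03), at 5.89 and 3.68 against 7.20 and 6.14 CPM in the mice. Neither gene's mice overlapped, and this held for 6 of these 8 members against 41% of genes. Cp was at 295 and 380 CPM (0.37, 0.31 to 0.43), but its mice crossed, at 212 and 374 CPM in the control female and male mice and 503 and 319 CPM in the Cxcl12-cKO ones. The Cp-rich subcluster 3 made up 6.91 and 10.9% of the fibroblast-like nuclei of those control mice and 16.0 and 8.04% of the Cxcl12-cKO ones. Cp also differed between the mice within subclusters 3 and 1, as given above, and within the late inner subcluster. There it was at 108 and 168 CPM in the control female and male mice and 451 and 204 CPM in the Cxcl12-cKO ones. The part of the subcluster shares in the Cp levels was not tested.

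In lesional astrocyte-like nuclei 2 of the 6 members with at least 50 UMIs passed, Cp higher and Tfrc lower, against 9.61% of 9556 genes (3.78% higher and 5.83% lower). Neither passed without the nuclei carrying UMIs of both sexes, where Cp was at 0.49 and Tfrc at -0.25, or without glial subcluster 6, led by myeloid genes such as Ly86 and Inpp5d, where they were at 0.44 and -0.25. Cp was at 1030 CPM in control and 1587 CPM in Cxcl12-cKO (log2 ratio 0.62, 0.55 to 0.70). The mice overlapped, at 1099 and 924 CPM in the control female and male mice and 1081 and 1965 CPM in the Cxcl12-cKO ones, and only the Cxcl12-cKO male lay above the others. Within glial subcluster 4 the level was 2084 CPM in control and 1990 CPM in Cxcl12-cKO, and this subcluster made up 33.5% of the lesional astrocyte-like nuclei of control and 57.6% of those of Cxcl12-cKO. The part of these shares in the Cp difference was not tested. Tfrc was at 21.8 and 12.9 CPM on 49 and 32 UMIs (-0.75, -1.45 to -0.09), and its log2 ratio was 0.020 with thinning. The fibroblast markers in these nuclei summed to 860 CPM in control and 328 CPM in Cxcl12-cKO, and their part was not tested. For 2 of these 6 members the mice did not overlap, against 39.4% of genes.

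In lesional oligodendrocyte-like nuclei 2 of the 4 members with at least 50 UMIs passed, both higher, against 9.4% of 4555 genes (4.15% higher and 5.25% lower). Ftl1 was at 75.0 and 133 CPM in control and Cxcl12-cKO (log2 ratio 0.82, 0.30 to 1.37, 46 and 93 UMIs) and Cp at 61.9 and 94.4 CPM (0.60, 0.01 to 1.22, 38 and 66 UMIs). The mice did not overlap for 2 of these 4 members, against 31.4%. For Ftl1 they were at 32.4 and 65.3 CPM in control and 190 and 110 CPM in Cxcl12-cKO. Of the Cp UMIs, 24 of 104 lay in 1 nucleus, and of the Ftl1 UMIs, 26 of 139 did. How far single nuclei carried the ratios of these genes was not tested. The median mitochondrial share of these nuclei was 0.287% in control and 0.461% in Cxcl12-cKO, the fibroblast markers summed to 905 and 616 CPM and the myeloid markers to 274 and 197 CPM, and their part was not tested. Trf, the gene of this class, was at 1073 and 1082 CPM (0.01, -0.14 to 0.17). In the 296 lesional endothelial-like nuclei Cp was at 496 and 842 CPM, Fth1 at 240 and 383 CPM and Ftl1 at 143 and 217 CPM in control and Cxcl12-cKO, where vascular subcluster 3 made up 47 of 194 and 32 of 102 nuclei.

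The list held 60 other iron genes. Of those with at least 50 UMIs, 3 of 41 passed the fold in myeloid-like nuclei (7.32%, against 6.42% of all genes), 4 of 47 in fibroblast-like nuclei (8.51%, against 6.5%), 9 of 36 in astrocyte-like nuclei (25%, against 9.61%) and 2 of 17 in oligodendrocyte-like nuclei (11.8%, against 9.4%). The zinc and iron importer Slc39a14 was higher in Cxcl12-cKO in 3 classes. In fibroblast-like nuclei it was at 313 CPM in control and 591 CPM in Cxcl12-cKO (log2 ratio 0.92, 0.87 to 0.97), with the control female and male mice at 278 and 352 CPM and the Cxcl12-cKO ones at 707 and 566 CPM. In astrocyte-like nuclei its log2 ratio was 0.64, with the mice apart, and in oligodendrocyte-like nuclei 0.80, with the mice overlapping. The oligodendrocyte-like ratio was 0.38 (-0.30 to 1.11) in the females and 0.23 (-0.95 to 1.47) in the males, below the fold in each. The ferritin receptor gene Scara5 (-0.80) and the iron-sensing gene Hfe (-0.85) were lower in fibroblast-like nuclei, although for Scara5 the females were at 16.7 and 16.1 CPM and the males at 34.5 and 12.1 CPM. In astrocyte-like nuclei the haem synthesis gene Uros (-0.98), the cystine transporter gene Slc7a11 (-0.93) and the haem transporter gene Slc48a1 (-0.71) were lower. Lcn2, which encodes a siderophore-binding protein, was higher there (0.74), at 0.17 in the females (-0.22 to 0.55) and 0.92 in the males. In myeloid-like nuclei the haem synthesis gene Cpox was lower (-0.69, with the mice overlapping) and in oligodendrocyte-like nuclei Fech, which inserts iron into the haem ring, was higher (0.91). Between regions of excitatory-neuron-like nuclei 7 of 45 of these genes met the rule (15.6%, against 14.6% of all genes). Nfe2l2, whose protein induces Hmox1, had log2 ratios of lesion over parenchyma of 2.19 in control and 1.00 in Cxcl12-cKO, and the hepcidin-inducing ligand gene Bmp6 of 2.48 and 1.35. The fibroblast markers given above were higher in the same lesional nuclei, and Bmp6 was highest in fibroblast-like nuclei. Nfe2l2 was highest in myeloid-like nuclei, at 381 CPM against 153 CPM in fibroblast-like ones. The myeloid markers in the excitatory-neuron-like nuclei summed to 28.6 and 38.3 CPM in the control and Cxcl12-cKO lesions and 40.3 and 43.6 CPM in the parenchymas. The part of RNA of other cells in the ratios of Nfe2l2 and Bmp6 was not tested. The haem synthesis gene Alas2 (-2.43 and -1.58) was lower in the lesion. The counts were 8 of 36 in astrocyte-like nuclei (22.2%, against 15.3%), 3 of 39 in inhibitory-neuron-like nuclei (7.69%, against 10.4%) and 2 of 19 in oligodendrocyte-like nuclei (10.5%, against 7.24%).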

How the data were processed

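Nuclei of 2 pooled mice per genotype were captured with 10x Chromium 3′ chemistry. The authors deposited filtered matrices of raw UMI counts, made with Cell Ranger 9.0.0 per the submitters' processing notes on build GRCm39, with nuclei already assigned to lesion or parenchyma by tags. The tables held 0 columns of values that went unused.

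Over the 4 matrices together, barcodes outside percentiles 2.5 and 97.5 of UMIs or genes, or above percentile 97.5 of mitochondrial share, were dropped. Counts scaled to 10000 per nucleus were clustered (3000 variable genes, 2000 in subclusters, 30 principal components, 20 neighbours, Leiden resolution 0.25) without the members, the other iron genes, Cxcl12, Cxcr4, Ackr3, sex-linked and mitochondrial genes. No doublets were removed, and removing the 10% of nuclei in each matrix with the highest Scrublet scores was an alternative. Nuclei were assigned to the female or male mouse by Xist or Y-linked UMIs. The fold rule was a log2 ratio of at least 0.5 (0.5 added to each count) whose exact 95% interval left out 0. Background counts used genes with at least 50 UMIs. Intervals are exact Poisson or binomial. The rule was tested on simulated data.

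Named were all members in classes of at least 50 nuclei, up to 5 other iron genes per comparison past the fold and of 1 direction in both mice, the 3 genes most like each member, and near-identical copies. A single further gene past the fold that the rule would name is not reported here. Examples of subclusters and of highest classes were chosen after their values were seen. Members and lists were chosen with earlier results of these data known. Python 3.11.15, scanpy 1.11.5, numpy 2.4.6, scipy 1.17.1, pandas 2.3.3, scikit-learn 1.9.0 and matplotlib 3.10.9 were used.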

Additional observations from a re-analysis of the deposited data

Results flagged for a closer look

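Cp, the ceruloplasmin gene, differed between the libraries in opposite directions in the female and the male mice in 2 classes of lesional nuclei. In fibroblast-like nuclei the log2 ratio of Cxcl12-cKO over control was 1.25 in the females (1.15 to 1.35, 212 and 503 CPM in control and Cxcl12-cKO) and -0.23 in the males (-0.32 to -0.14, 374 and 319 CPM). In myeloid-like nuclei it was -0.54 in the females (-0.82 to -0.25, 102 and 70.2 CPM) and 0.92 in the males (0.58 to 1.27, 67.4 and 128 CPM). There was 1 mouse of each sex per genotype, so that sex and mouse cannot be told apart and the difference between females and males was not tested. In the myeloid-like class 1 nucleus held 103 of the 1098 Cp UMIs.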

How the results depend on the processing

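The counts of members past the fold rested on few genes and moved readily. The share of all genes that passed the same fold moved as well, and is given with each count. That share used genes with at least 50 UMIs, whereas members were counted without this minimum, except where a minimum is named. In the main setting this changed only the count between regions of excitatory-neuron-like nuclei. There Hmox1, on fewer than 50 UMIs, is 1 of the 2 members counted, and 1 of 7 passed with the minimum. How many members reached 50 UMIs under each alternative is not given. Among lesional myeloid-like nuclei 0 members passed, but 1 did with no barcode filter, 4 in the female mice, 2 in the male mice and 1 without subclusters 3 and 4. All genes passed at 6.42%, and at 6.58, 13.4, 7.79 and 6.62% under these alternatives in the same order. Among fibroblast-like nuclei 2 passed, but 1 with no barcode filter, with thinning or with a UMI minimum of 200, and 0 in the male mice or at a log2 fold of 1. For all genes the share was 6.5%, and 6.89, 5.15, 3.92, 5.41 and 0.998% in that order. Among astrocyte-like nuclei 2 passed, but 1 without the top Scrublet scores, in the male mice or with the minimum of 200, and 0 without nuclei carrying UMIs of both sexes, in the female mice, at a fold of 1 or without glial subcluster 6. For all genes the share was 9.61%, and 8.69, 13.1, 8.19, 9.29, 10.3, 1.65 and 8.56% in that order. Among oligodendrocyte-like nuclei 2 passed, but 4 when nuclei were classed by their own markers, 1 with the mean of per-nucleus CPM, and 0 in the male mice, at a fold of 1 or with the minimum of 200. For all genes the share was 9.4%, and 14.5, 11.2, 16.4, 2.17 and 6.04% in that order. Between regions of excitatory-neuron-like nuclei 2 passed, but 1 without nuclei of both sexes, without the top Scrublet scores, with own markers, with the mean of per-nucleus CPM, with thinning, in either sex alone and with the minimum of 200. For all genes the share was 14.6%, and 13.2, 13.8, 13.1, 14.9 and 3.57% in that order up to thinning. It was 12.1% in the females, 6.93% in the males and 16.6% with the minimum of 200.

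Of 10 log2 ratios past the fold, the direction turned for 3, Tfrc in astrocyte-like nuclei with thinning (0.020), Cp in astrocyte-like nuclei of the female mice (-0.024) and Hmox1 between regions of control excitatory-neuron-like nuclei of the male mice (-1.03), and the cause was not tested. Of 44 ratios not past the fold, 34 changed sign under at least 1 alternative, Fth1 and Cp in myeloid-like nuclei keeping theirs under 6 and 7 of 12. Fth1 between regions of excitatory-neuron-like nuclei was negative under 11 of 11 alternatives in each library (-1.46 to -0.94 in control, -1.41 to -0.80 in Cxcl12-cKO). In fibroblast-like nuclei Tfrc was negative (-0.98 to -0.44) and Hmox1 positive (0.29 to 0.73) under 11 of 11. Leaving out the nuclei with the lowest 5% of Malat1 share, the myeloid, vascular and glial subclusters was chosen after seeing the data. There was 1 mouse of each sex per genotype, so that the spread between mice cannot be told apart from sex, and counts of nuclear RNA measure neither protein nor RNA outside the nucleus.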

Other observations

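Of the 60 other iron genes, 34 had at least 50 UMIs in the lesional class where their level was highest, and that class was the myeloid-like one for 14 of them (41.2%), against 2399 of 10116 genes of any kind counted in the same way (23.7%). A minimum of UMIs is more easily met in the larger classes. These included the constitutive haem oxygenase Hmox2 (112 CPM), the biliverdin reductases Blvra (64.4 CPM) and Blvrb (84.6 CPM) that act after haem oxygenase, the haem-sensing repressor Bach1 (103 CPM) and Lrp1 (770 CPM), a receptor for haem bound to haemopexin. Cd163, the receptor for haemoglobin bound to haptoglobin, was at 7.19 CPM.

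Astrocyte-like nuclei were highest for 5 of the 34, the haem exporter Flvcr1 (133 CPM), the importer Slc39a14 (523 CPM), Lcn2 (134 CPM), the metalloreductase Steap4 (102 CPM) and the ferrireductase Cybrd1 (48.1 CPM). Fibroblast-like nuclei were highest for 5, among them the endosomal ferrireductase Steap3 (184 CPM) and the hepcidin inducer Bmp6 (491 CPM). Oligodendrocyte-like nuclei were highest for 4, endothelial-like nuclei for 2 (Abcg2 at 657 CPM and Slc39a8 at 59.2 CPM), osteoblast-lineage-like nuclei for 2, and T-cell-like and oligodendrocyte-precursor-like nuclei for 1 each.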
